A study of Mus musculus with 2 samples.

Results

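The Zic genes encode transcription factors with tandem C2H2 zinc fingers that are related to the Gli proteins. Zic1, Zic2, Zic4 and Zic5 were picked out by symbol from the Ensembl gene identifiers, and all 4 were found among 43346 genes in the deposited gene tables. In vertebrates the genes lie in pairs that point away from each other: Zic1 with Zic4, and Zic2 with Zic5. Zic proteins act early in neural plate and neural crest formation and later in the dorsal neural tube, the roof plate, the cerebellum and the medial forebrain. Loss of ZIC1 and ZIC4 together has been linked to Dandy-Walker malformation of the cerebellum, and loss of ZIC2 to holoprosencephaly. Zic2 is also known for directing the retinal axons that stay on their own side of the brain. The remaining family member is not analysed here.

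The RNA came from the central nervous system of C57BL/6J mouse embryos at day 14, with littermates of both sexes pooled, and no treatment is named. Stranded libraries of polyadenylated RNA were read from both ends for 101 bases each. There was 1 group of 2 libraries, labelled as biological replicates 1 and 2. They came from separate biosamples with the same donor number in the labels, and their spread may be technical. Gene counts summed to 99528934 in replicate 1 and 134760822 in replicate 2. No conditions were compared and no p-value was computed: values are given for each library, then as mean ± SD (n = 2).

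The tissue label was checked against marker genes, and the 2 libraries differed in what they held besides neural tissue. All 6 neuronal and all 6 progenitor markers were above 1 TPM (a level per transcript length, scaled to the same total in each library) in both libraries. Over all protein-coding genes, 65.2% reached 1 TPM. The summed level of 12 muscle and cartilage genes of the trunk was 1244 TPM in replicate 1 and 98.7 TPM in replicate 2, and that of 12 meningeal and fibroblast genes was 1352 and 591.2 TPM. All 6 telencephalic markers were higher in replicate 2, by 0.78 to 1.15 on the log2 scale. Of 8 hindbrain and cord genes, 4 were higher and 4 lower in replicate 2. Hoxc8, a gene of the thoracic cord, had 2 counts in replicate 1 and 721 in replicate 2, while Hoxa2 was lower in replicate 2 (log2 ratio -1.09). Because the libraries differ in this way, each Zic value is given for both. In bulk tissue, a change in the number of cells of a type and a change in RNA per cell cannot be told apart.

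The member genes share a coding segment that carries part of the zinc fingers, and it is printed here because it is what makes them a family and could make their reads hard to assign. In Zic1 it is a middle coding exon of 164 bases at chr9:91362459-91362622 on the minus strand, and in Zic2 an exon of the same length at chr14:122478540-122478703 on the plus strand. The matching segments begin at the first base of an exon in Zic4, chr9:91384014-91384183 on the plus strand, and in Zic5, chr14:122459606-122459775 on the minus strand. Sequences are from the GENCODE M21 transcripts on GRCm38, the assembly also called mm10, 5′ to 3′ along each gene, and capitals mark bases that differ from Zic1 or are extra to it.
Zic1: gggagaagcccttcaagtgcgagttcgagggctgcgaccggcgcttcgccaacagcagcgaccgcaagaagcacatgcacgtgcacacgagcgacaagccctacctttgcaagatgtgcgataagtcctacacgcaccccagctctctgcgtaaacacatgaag
Zic2: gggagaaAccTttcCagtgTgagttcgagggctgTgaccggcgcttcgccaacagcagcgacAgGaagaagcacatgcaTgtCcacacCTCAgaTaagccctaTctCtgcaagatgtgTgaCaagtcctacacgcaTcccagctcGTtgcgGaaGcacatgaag
Zic4: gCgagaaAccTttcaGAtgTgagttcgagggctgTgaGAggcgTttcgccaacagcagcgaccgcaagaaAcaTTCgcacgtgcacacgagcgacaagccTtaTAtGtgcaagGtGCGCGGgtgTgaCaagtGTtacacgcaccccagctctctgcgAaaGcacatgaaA
Zic5: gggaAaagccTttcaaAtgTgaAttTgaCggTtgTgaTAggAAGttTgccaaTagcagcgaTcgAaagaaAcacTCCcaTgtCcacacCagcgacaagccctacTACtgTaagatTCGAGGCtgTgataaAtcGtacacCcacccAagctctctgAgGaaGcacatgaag

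Zic2 differed from Zic1 at 23 of the 164 bases, so 86.0% of the Zic1 bases were identical. Zic4 differed at 26 bases and Zic5 at 38, and each of them carried 6 extra bases in the alignment, giving segments of 170 bases. By exon layout the genes fall into Zic1 and Zic2, where the segment is an exon of its own, and Zic4 and Zic5, where it opens an exon of 316 and 2981 bases. This grouping crosses the genomic pairs. The closest sequences were Zic1 and Zic2, at 86.0% identity over the alignment, and the most distant were Zic2 and Zic5, at 72.9%, although they are neighbours.

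Despite this likeness, no run of 101 bases, the read length, was shared between transcripts of different members. The longest identical run between any pair was 42 bases, between Zic1 and Zic4. Against the transcripts of all other annotated genes, Zic1, Zic2 and Zic4 had no 101-base word in common with another gene. Zic5 had 88 of 4789 words, 1.84%, in common with 1 processed pseudogene, Gm12241, which was measured at 0.03 and 0.04 TPM. A read that matches perfectly over its whole length could thus be placed on a single annotated gene except in that small stretch of Zic5.

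Zic1 was the most abundant member. Its level was 367.3 TPM in replicate 1 and 380.1 TPM in replicate 2 (373.7 ± 9.01 TPM, n = 2), which ranked 309th and 305th among 21474 protein-coding genes. Zic4, its neighbour, stood at 50.7 and 56.2 TPM (53.4 ± 3.88 TPM, n = 2). Zic2 was measured at 39.9 and 43.6 TPM (41.7 ± 2.59 TPM, n = 2). Zic5 was the lowest, at 8.82 and 11.5 TPM (10.2 ± 1.90 TPM, n = 2). On gene TPM the order Zic1, Zic4, Zic2, Zic5 held in both libraries, and no neighbours in that order overlapped. Zic4 and Zic2 changed places on some of the other measures given below.

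Counts were ample for all 4 genes. Zic1 had 29835 and 42999 expected counts, Zic4 7883 and 12122, Zic2 5342 and 7673, and Zic5 1482 and 2306. Expected counts are the read pairs that the quantification assigned to a gene. Of all counts given to the 4 genes, Zic1 took 67.0% and 66.1%, and Zic5 took 3.33% and 3.54%. By summed TPM, Zic1 took more, 78.7% and 77.4%. Over transcripts annotated as protein-coding alone, Zic1 took 62.4% and 62.5% of the summed TPM, below its share of counts.

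Within Zic1, 1 short transcript held a far larger share of the TPM than of the counts. Zic1-203 is annotated as a processed transcript, without a coding sequence, and is 395 bases long. It was given 234.0 and 235.5 TPM, which was 63.7% and 62.0% of the Zic1 level. The same transcript held 9.83% and 9.57% of the Zic1 counts. TPM divides counts by an effective length, which for Zic1-203 was 198.0 and 207.6 bases, against 2614 and 2624 for the coding transcript Zic1-202. Of the bases in Zic1-203, 350 lie in exons of the coding transcripts and only 45 are its own.

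Zic5 showed the same pattern. Zic5-202, a processed transcript of 705 bases, was given 47.2% and 54.1% of the Zic5 TPM but 9.03% and 11.8% of its counts. It shares 583 bases with the coding transcript Zic5-201 and has 122 of its own. In Zic2, the retained-intron transcript Zic2-202 took 7.60% and 9.54% of TPM. In Zic4, 6 of 12 transcripts were not annotated as protein-coding, and together they took 23.33% and 24.97% of TPM. As background, transcripts not annotated as protein-coding held at least 50% of the TPM in both libraries in 8.61% of 9528 protein-coding genes with a mean of at least 10 TPM. Zic1 was 1 of these genes, while the Zic5 share passed that bound in replicate 2 alone. The median share over those genes was 3.97%.

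Reads that cross splice junctions tell these transcripts apart, since the exon of a short transcript joins the shared exon at the same place as the coding exon does. The bases on either side of each junction are printed because a read must cross them to count for that transcript. Capitals are the last 30 bases of the upstream exon and lower case is the start of the shared finger exon. Zic1-203 draws its capitals from chr9:91363010-91363039 and the coding junction from chr9:91364036-91364065. In Zic5 the capitals are from chr14:122459900-122459929 for Zic5-202 and from chr14:122463892-122463921 for the coding transcript. All 4 are on the minus strand of GRCm38.
Zic1 coding junction: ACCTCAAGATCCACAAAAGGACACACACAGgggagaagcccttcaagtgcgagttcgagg
Zic1-203 own junction: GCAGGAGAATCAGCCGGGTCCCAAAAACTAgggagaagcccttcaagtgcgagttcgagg
Zic5 coding junction: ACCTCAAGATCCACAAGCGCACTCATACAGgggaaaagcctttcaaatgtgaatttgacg
Zic5-202 own junction: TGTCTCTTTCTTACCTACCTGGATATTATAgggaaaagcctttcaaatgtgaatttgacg

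The deposited junction table is on the older assembly mm9 and gives reads in 2 fields that no label ties to replicate 1 or 2, so they are called field 1 and field 2. The own junction of Zic1-203, mm9 chr9:91257461-91257847, had 3 and 1 reads. The coding junction at the same acceptor, mm9 chr9:91257461-91258873, had 1479 and 1922 reads. Reads for Zic1-203 were thus 4 of 3405, or 0.117% (exact 95% Clopper-Pearson interval 0.0320% to 0.301%). That share is below the 9.83% and 9.57% of counts and far below the 63.7% and 62.0% of TPM assigned to Zic1-203. These are unlike measures. The exon before the own junction has 45 bases, against 1306 before the coding junction, so fewer read positions can cross it. A share of counts also grows with transcript length, which a share of junction reads does not.

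For Zic5-202 the own junction had 3 and 3 reads, against 93 and 114 reads for the coding junction of Zic5-201. The share was 6 of 213 reads, 2.82% (exact 95% interval 1.04% to 6.03%), which also lay below its share of counts and of TPM. The same limits apply, with 122 bases before the own junction and 1786 before the coding one. The intervals of the junction shares cover counting error only, because reads carry no molecular identifiers. The mm9 transcript table, made from the Ensembl release 65 annotation, gave Zic1-203 40.0% and 39.1% of the Zic1 RPKM (reads scaled by length and library size), and Zic5-202 55.8% and 47.9% of that of Zic5. A high share for both short transcripts was therefore present in each deposited quantification, while their own junctions were nearly empty.

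**Figure D1:**
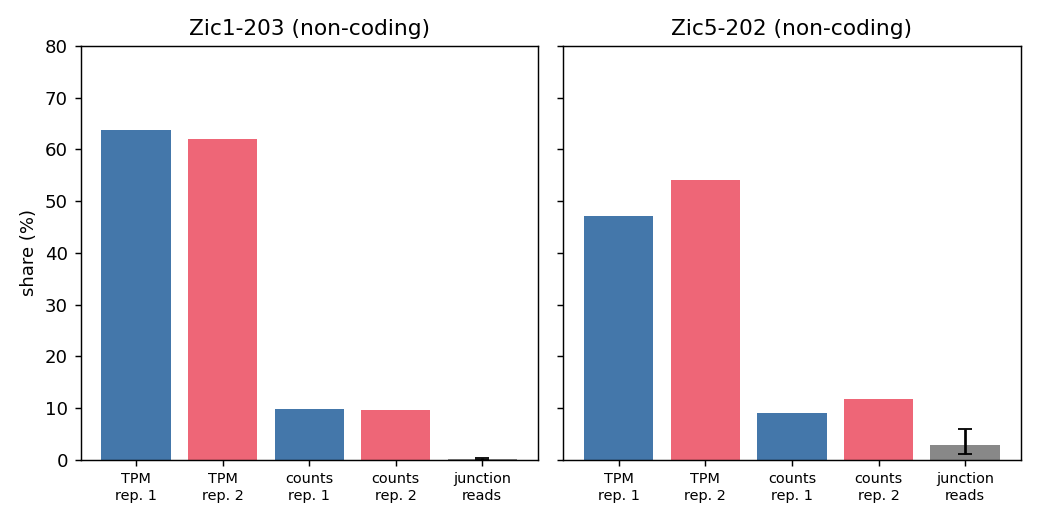
Share of the gene assigned to Zic1-203 (left) and Zic5-202 (right), in percent, by TPM and by expected counts in each replicate, and by mm9 reads across the transcript's own junction as a share of those and the coding junction reads, with the exact 95% interval. The Zic1-203 bars go from 63.7% of TPM to 0.117% of junction reads, and the Zic5-202 bars from 47.2% to 2.82%.

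Counting only transcripts annotated as protein-coding changed the levels. Zic1 fell to 133.4 and 144.6 TPM (139.0 ± 7.92 TPM, n = 2), and Zic5 to 4.66 and 5.28 TPM (4.97 ± 0.438 TPM, n = 2). Zic4 stood at 38.8 and 42.1 TPM and Zic2 at 36.9 and 39.4 TPM. Zic4 was above Zic2 within each library, but the ranges of the 2 genes overlapped. The order of the means was the same as before, with Zic4 and Zic2 not separated beyond their spread. On mm9 junction reads summed over the fields, Zic2-201 was above Zic4-201, with 619 against 390 at the first junction and 1422 against 1315 at the last. Ensembl RPKM on mm9 kept Zic4 above Zic2, at 8.75 and 5.57. RPKM of the deposited mm9 assembled gene models put Zic4, at 0.253, below Zic2 at 0.939 and Zic5 at 0.287.

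**Figure D2:**
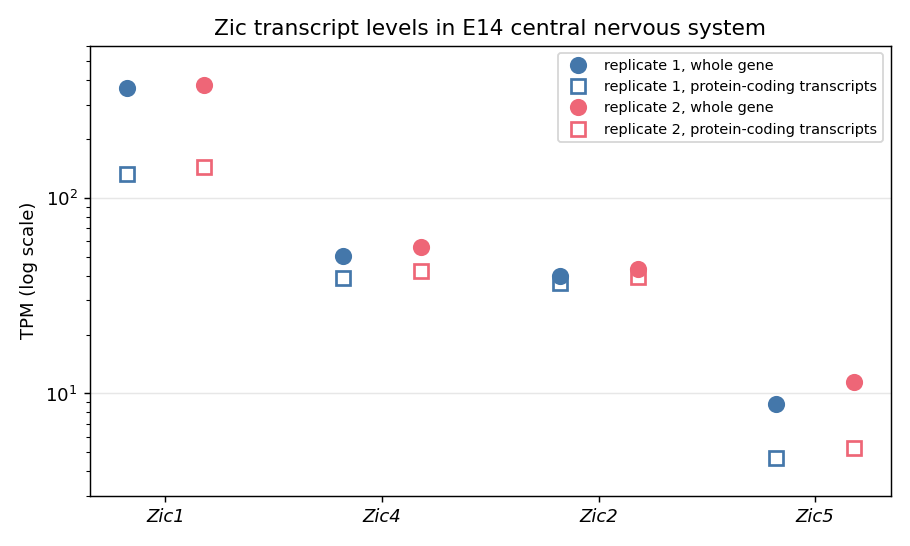
Level of each Zic gene in TPM on a log axis, for replicate 1 (blue) and replicate 2 (red). Filled circles are whole genes and open squares are the sum over protein-coding transcripts, and each point is 1 library. Zic1 drops from 367.3 to 133.4 TPM in replicate 1 and Zic5 from 8.82 to 4.66 TPM, whereas Zic2 stays close, at 39.9 and 36.9 TPM.

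The paired loci were then compared. On gene TPM, Zic1 was 7.25-fold and 6.77-fold above Zic4 (log2 ratio 2.81 ± 0.07, n = 2). Zic2 was 4.52-fold and 3.79-fold above Zic5 (log2 ratio 2.05 ± 0.18, n = 2). The gap within the pair was larger at the Zic1-Zic4 locus in both libraries. The sum of Zic1 and Zic4 was 8.58-fold and 7.92-fold that of Zic2 and Zic5 (log2 ratio 3.04 ± 0.08, n = 2), and 1.99-fold on the mm9 assembled gene models described next.

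These folds depended on the measure. With protein-coding transcripts only, an alternative chosen after the data were seen, Zic1 was 3.43-fold above Zic4 in both libraries and Zic2 was 7.91-fold and 7.46-fold above Zic5. The locus ratio was then 4.15-fold and 4.18-fold. Counts per kilobase of the longest coding transcript, also chosen later, gave 2.54-fold for Zic1 over Zic4, 6.77-fold for Zic2 over Zic5 and 2.96-fold between the loci. In the mm9 tables, Ensembl RPKM gave 3.61-fold for Zic1 over Zic4 and 4.25-fold for Zic2 over Zic5, while RPKM of the deposited assembled gene models gave 8.63-fold and 3.27-fold.

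Junction reads, which do not depend on transcript lengths, did not settle the folds either. Zic5-201 has a single junction, with 93 and 114 reads in the fields. Across the last junction of Zic1-201, Zic2-201 and Zic4-201, Zic1 was 6.72-fold and 6.29-fold above Zic4, and Zic2 was 5.37-fold and 8.10-fold above Zic5. Across the first junction of these transcripts, Zic1 was 9.67-fold and 8.11-fold above Zic4, and Zic2 was 3.02-fold and 2.96-fold above the same Zic5 reads. The Zic4 first junction, with 390 reads over both fields, is only 1 of several that enter its finger exon. The largest of the others had 69 reads. The first-junction fold over Zic4 therefore leaves out part of the Zic4 reads. In every measure named here Zic1 was above Zic4, Zic2 above Zic5 and, where it was computed, the chromosome 9 locus above the chromosome 14 locus. Which pair had the wider gap was not stable. It was Zic1 and Zic4 on gene TPM, FPKM, TPM with 1 added, CPM, mm9 assembled models and first-junction reads. It was Zic2 and Zic5 on mm9 Ensembl RPKM, protein-coding transcripts, counts per kilobase and last-junction reads summed over the fields.

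The loci also differ in layout. Zic1 (ENSMUSG00000032368, chr9:91358058-91365810, minus strand) and Zic4 (ENSMUSG00000036972, chr9:91362413-91389348, plus strand) overlap in the annotation because 1 Zic4 transcript, Zic4-208, starts inside Zic1. That transcript held 0.63% and 1.43% of the Zic4 TPM. Zic5 (ENSMUSG00000041703, chr14:122456795-122465677, minus strand) and Zic2 (ENSMUSG00000061524, chr14:122475435-122479852, plus strand) start 9758 bases apart. Between them lies 2610035F20Rik, a non-coding gene, at 2.31 and 2.87 TPM.

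Both pairs were set beside all head-to-head pairs of protein-coding genes whose starts lie within 20 kb and whose means reach 1 TPM, 2205 pairs in all. The median absolute log2 ratio within those pairs was 1.74, with quartiles of 0.83 and 3.15. Zic1-Zic4, at 2.81, was at percentile 69.9 and Zic2-Zic5, at 2.05, at percentile 56.7. With protein-coding transcripts only, their places changed to percentiles 51.5 and 73.4 of 2113 pairs. Neither pair was at the edge of the distribution, so unequal levels of this size are common among such neighbours.

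**Figure D3:**
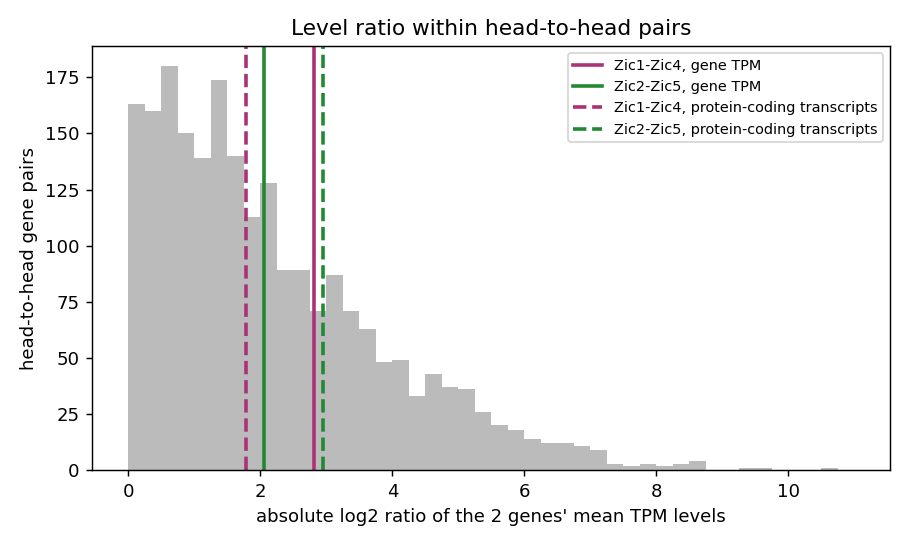
Absolute log2 ratio of the mean TPM levels of the 2 genes in 2205 head-to-head pairs (grey bars). Solid lines are the Zic pairs on gene TPM and dashed lines are those on protein-coding transcripts only. The lines for Zic1-Zic4 (2.81 and 1.78) and Zic2-Zic5 (2.05 and 2.94) change order between the measures and lie within the body of the distribution.

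The neighbourhoods of the pairs differed in the types of genes they held, so their counts of detected genes do not compare like with like. Within 500 kb of Zic1-Zic4 there were 15 other annotated genes, none of them protein-coding, and 1 reached a mean of 1 TPM, the processed pseudogene Gm5620 at 1.98 TPM. Within 500 kb of Zic2-Zic5 there were 19 others, 10 of them protein-coding, and 9 reached 1 TPM, 6 of these protein-coding. Over all genes in the tables, 36.0% reached 1 TPM, and of protein-coding genes 65.2%. That 36.0% mixes gene types, so it is not a like background for the Zic1-Zic4 neighbours, none of which is protein-coding. The highest near Zic2-Zic5 was Tm9sf2, a transmembrane protein gene, at 53.2 and 55.6 TPM. The nearest protein-coding genes, Gm5089 at 0.20 and 0.19 TPM and Gm10837 at 0.11 and 0.08 TPM, were below 1 TPM. Pcca, a propionyl-CoA carboxylase subunit 54472 bases from the locus, stood at 27.6 and 29.7 TPM, and Clybl, a mitochondrial enzyme gene 54561 bases away on the other side, at 9.64 and 9.74 TPM.

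Zic4 had the most complex transcript set. Zic4-201, a coding transcript of 3891 bases that opens at chr9:91378642, took 48.6% and 51.5% of the TPM and 73.0% and 74.4% of the counts. Its first exon begins upstream of an acceptor that transcripts with earlier first exons splice into. The 7 transcripts that use this acceptor together took 40.3% and 35.5% of the TPM and 21.8% and 19.7% of the counts. Among them, Zic4-207, 641 bases long, took 17.3% and 13.5% of TPM on 3.13% and 2.39% of counts.

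Junction reads on either side of that exon were also compared. The junction into that exon from upstream, mm9 chr9:91267531-91273622, had 259 and 392 reads. The next junction, mm9 chr9:91274241-91278851, which is shared by Zic4-201 and 3 other transcripts, had 153 and 237 reads. Reads entering the exon from upstream were thus 1.67-fold those leaving it. Of the 7 transcripts that enter it, Zic4-204 and Zic4-209 alone are annotated with the leaving junction. The fold therefore does not measure how Zic4 starts are shared. The mm9 transcript table placed Zic4 differently in its 2 fields: Zic4-201 had 48.9% and 8.84% of the Zic4 RPKM, and the retained-intron transcript Zic4-205 had 5.19% and 83.8%. The whole-gene RPKM was closer, 7.60 and 9.90. Transcript shares of Zic4 were therefore less settled than its gene level.

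The upstream exons of Zic4 were told apart by their donor sites, over 544 reads into the first shared upstream exon. The donor of Zic4-204 and Zic4-211 gave 297 reads, 54.6% (exact 95% interval 50.3% to 58.8%). That of Zic4-207 gave 108 reads, 19.9% (exact 95% interval 16.6% to 23.5%), and that of Zic4-209 gave 69 reads, 12.7%. The donor of Zic4-208 inside Zic1 gave 22 reads, 4.04%. Reads upstream of Zic4-201 were thus spread over several donors, and that of Zic4-204 and Zic4-211 had the most in both fields, with 123 and 174 reads. A donor does not always mark a first exon. The junction mm9 chr9:91263733-91263811, annotated in Zic4-206, had 78 reads. It runs from the Zic4-207 donor into the exon that ends at the Zic4-204 donor. The shares are therefore shares of donors, not of first exons.

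Junction reads were also higher toward the 3′ end in the 3-exon transcripts Zic1-201, Zic2-201 and Zic4-201. Zic1-202, which has 4 exons, shares both junctions of Zic1-201 and has a further junction before them, outside the coding sequence, with 265 and 305 reads, which is not counted here. In Zic1 the first junction had 1479 and 1922 reads and the last 3351 and 5132. In Zic2 they had 281 and 338 against 499 and 923, and in Zic4 153 and 237 against 499 and 816. The last junction was 2.49-fold the first in Zic1, 2.30-fold in Zic2 and 3.37-fold in Zic4. Further junctions enter the same Zic4 exon, 1 of them with 69 reads. They are not in its first-junction count, so the Zic4 fold is raised by their absence. Over 4025 transcripts of 3 exons with at least 50 reads at each junction, the median was 1.10-fold, and Zic1, Zic2 and Zic4 were at percentiles 87.2, 85.7 and 91.3. In each field the last junction had more reads than the first in all 3 genes.

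**Figure D4:**
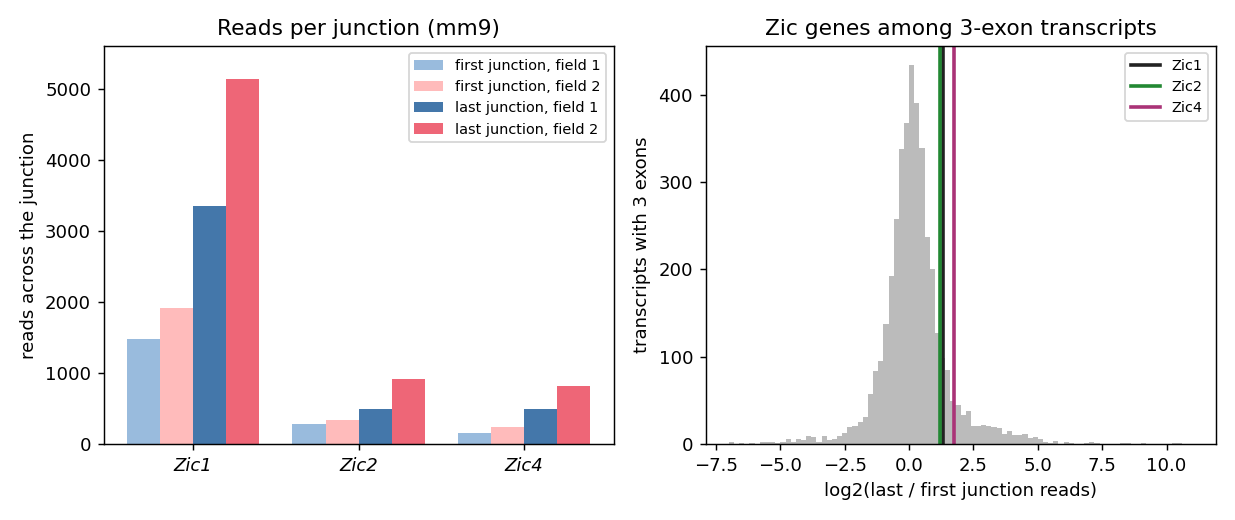
Left, mm9 reads across the first and the last junction of the 3-exon transcripts Zic1-201, Zic2-201 and Zic4-201 in both fields. Right, log2 of last over first junction reads for 4025 transcripts of 3 exons (grey), with the Zic genes as lines at 1.32, 1.20 and 1.75, to the right of the median of 0.13.

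All 4 members were slightly higher in replicate 2. The log2 ratio of replicate 2 over replicate 1, on CPM (counts scaled by library size) with TMM scaling, was 0.11 for Zic1, 0.21 for Zic4, 0.11 for Zic2 and 0.22 for Zic5. The median over 14340 genes with a mean of at least 200 counts was 0.02, and the middle 50% lay between -0.15 and 0.14. Zic1 and Zic2 were inside that range, and Zic4 and Zic5 above it, at percentiles 85.1 and 87.0. Among those genes, 3.95% were at least 2-fold lower in replicate 2 and 0.286% at least 2-fold higher, and none of the 4 Zic genes was in either group. Scaling by spike-in totals moved the median of all genes by 0.21 and the members with it. Relative to the median of all genes, Zic1 was 0.09, Zic2 0.09, Zic4 0.18 and Zic5 0.20 higher in replicate 2 on the log2 scale, under TMM and under spike-in scaling alike.

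On TMM-scaled CPM the members stayed within 1.17-fold between libraries that differed in their non-neural and regional markers. Zic5 was 1.30-fold apart on TPM and 1.35-fold apart under spike-in scaling, the widest gap of any member on each. Of the trunk muscle and cartilage list, 11 of 11 genes with enough counts were at least 2-fold lower in replicate 2, among them Ckm, a muscle creatine kinase, at a log2 ratio of -7.88, and Myh3, an embryonic myosin, at -6.54. Of the meningeal and fibroblast list, which matters here because Zic genes are also known from the meninges, 6 of 12 were at least 2-fold lower, with Foxc2, a mesenchymal factor, at -1.56 and Col3a1 at -1.56. Of the 6 telencephalic genes, 3 were at least 2-fold higher, led by Emx1 at 1.15. Of the 8 hindbrain and cord genes, 3 were at least 2-fold higher and 1 lower. What part these differences have in the small Zic ratios was not tested.

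**Figure D5:**
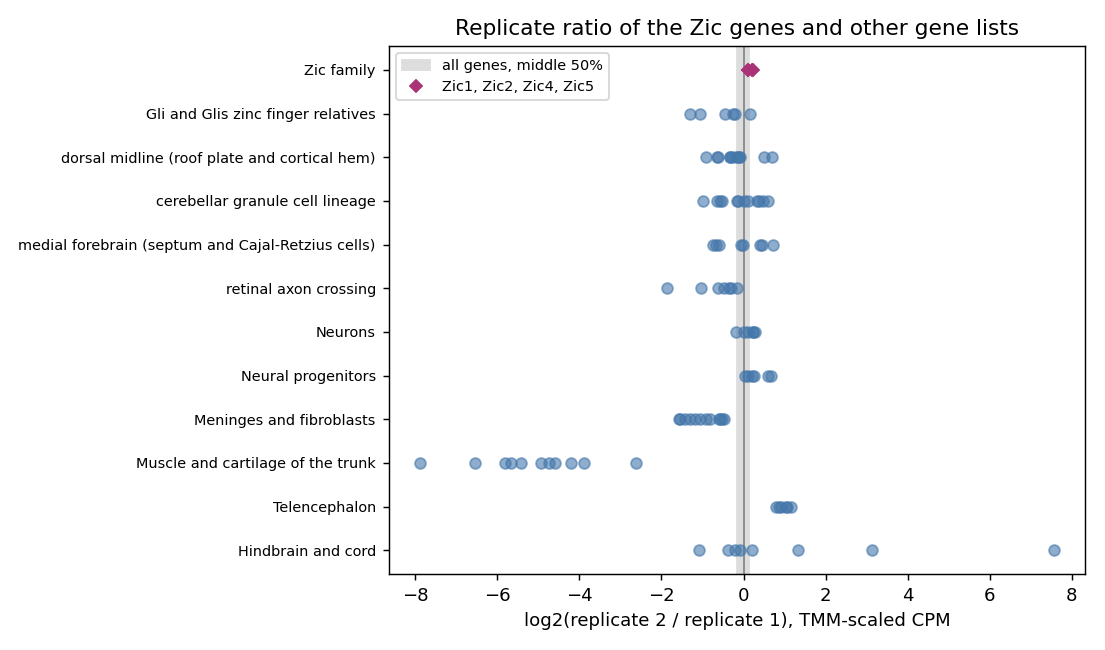
Log2 ratio of replicate 2 over replicate 1 on TMM-scaled CPM for the Zic genes (diamonds) and for the genes of each other list with a mean of at least 200 counts (circles). The grey band is the middle 50% of all such genes. The Zic genes sit between 0.11 and 0.22, while the trunk genes lie far to the left and the telencephalic genes at 0.78 to 1.15.

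The nearest relatives by zinc finger type were read from the same tables. Glis2, a Gli-like zinc finger factor, was the highest, at 38.5 and 37.3 TPM. The Hedgehog effectors followed: Gli1, itself a Hedgehog target, at 18.4 and 7.51 TPM, Gli3, mainly a repressor, at 11.0 and 12.2 TPM, and Gli2, the main activator, at 8.85 and 7.07 TPM. Glis1 stood at 2.21 and 0.92 TPM and Glis3 at 1.71 and 1.26 TPM. Gli1 and Glis1 were at least 2-fold lower in replicate 2 (log2 ratios of -1.29 and -1.06), 2 of 6 against 3.95% of all genes. Zic1 by gene level was above all 6, and Zic5 was within their range.

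Genes that mark domains where Zic genes are known to act were present at lower levels than Zic1. Of 15 dorsal midline genes (roof plate and cortical hem), 13 reached 1 TPM, with a median of 4.24 TPM. Since 65.2% of all protein-coding genes reached 1 TPM, detection in this list and those below says little about these domains. The highest were Bmp7, a dorsal signal, at 19.8 and 12.7 TPM and Msx1, a homeobox factor, at 12.7 and 11.9 TPM, and the lowest was Gdf7, a roof plate ligand, at 0.77 and 0.30 TPM. None of the 12 with enough counts was 2-fold apart, and their median log2 ratio was -0.23. Over all genes with enough counts, 3.95% were at least 2-fold lower in replicate 2 and 0.286% higher, which is also the background for the lists that follow.

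All 12 genes of the cerebellar granule cell lineage were above 1 TPM, against 65.2% of all protein-coding genes, with a median of 25.2 TPM. Reln, which encodes the secreted protein reelin, led with 59.3 and 87.8 TPM, followed by Cbln1, a synaptic organizer, at 54.4 and 49.2 TPM. Atoh1, the factor that specifies rhombic lip progenitors, was the lowest, at 3.45 and 1.74 TPM. None was 2-fold apart between libraries, and the median log2 ratio was -0.06.

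In the medial forebrain list (septum and Cajal-Retzius cells), 9 of 9 genes reached 1 TPM, and none of 8 was 2-fold apart. Ebf3 was highest, at 94.3 and 59.6 TPM, then Calb2, which encodes calretinin, at 29.5 and 28.8 TPM, and Fgf8, a patterning signal, was lowest, at 1.42 and 1.20 TPM. In the retinal axon crossing list, 7 of 8 genes reached 1 TPM. The share over all protein-coding genes, for both lists, was 65.2%. Ephb1, the receptor through which ipsilateral retinal axons turn at the chiasm, was at 38.5 and 34.7 TPM and Boc at 25.1 and 19.6 TPM, while Vax2, a ventral retina factor, was at 0.11 and 0.07 TPM. In the retinal list 2 of 7 genes, Isl2 (log2 ratio -1.86) and Foxd1 (-1.05), were at least 2-fold lower in replicate 2, against 3.95% of all genes. Whether the retina was part of the tissue is not given in the labels.

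Base composition differed among the members and between neighbours. The coding sequence was 62.1% G and C in Zic1, 58.7% in Zic4, 66.2% in Zic2 and 68.0% in Zic5. In the RefSeq promoter table (GRCm38.p6), windows around the annotated starts of Zic1, Zic4 and Zic5 were matched. The Zic1 window held 31 CpG dinucleotides and the Zic4 window 8, against a median of 7 over all promoters, and the Zic5 window held 15. The Zic4 window, chr9:91368722-91369021, covers the starts of Zic4-204, Zic4-207 and Zic4-211. The start of Zic4-201, at chr9:91378642, was not measured. On these windows the pair on chromosome 9 thus joins a CpG-rich Zic1 start with upstream Zic4 starts near the median.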

How the data were processed

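The authors deposited gene and transcript tables on mm10 with GENCODE M4, per the deposited notes, holding expected counts, TPM, FPKM and, for transcripts, the percent of the gene's TPM; the quantification program is not given in the sources used here. The deposited mm9 tables hold RPKM in 2 fields, read counts per splice junction, and mean coverage as a signal per contig. Identifiers were matched to GENCODE M21 for names and positions (42462 of 43346 genes had a symbol).

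Levels and ratios were computed from the deposited TPM. Replicate ratios used rounded expected counts, TMM scaling and log2 CPM with a prior count of 1 (edgeR 4.0.16, R 4.3.3), for genes with a mean of at least 200 counts. DESeq2 1.42.0 size factors, total and spike-in scaling, other filters, other units and single replicates were alternatives. Spike-ins stayed out of library totals. At 3 counts, the limit a count of 0 allows is 0.0301 and 0.0223 CPM. No statistical test was made.

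The members and gene lists were chosen with earlier results of these data known. Genes named were the members, their neighbours within 500 kb (summarised), all Gli and Glis genes, the 2 highest and the lowest of each other functional list, and members of any list at least 2-fold apart, up to 2. Contigs on chromosome 14 were not used here.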

Additional observations from a re-analysis of the deposited data

Results flagged for a closer look

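Several signals lie outside the annotated features that the report's values rest on. Each junction named here is absent from the Ensembl release 65 exons, has at least 20 reads in the mm9 table, and exceeds in both fields the 3 reads that a count of 0 allows. In Zic4, an acceptor 3 bases upstream of the annotated one was used from the donor of Zic4-204 with 48 reads (19 and 29 in the fields) and from that of Zic4-207 with 34 reads (16 and 18). Over 4 donors this acceptor took 105 of 505 reads, 20.8% (exact 95% Clopper-Pearson interval 17.3% to 24.6%), and it was 22.8% and 19.2% in the fields. In Zic2, an acceptor 37 bases upstream of the last annotated one had 41 reads (20 and 21), 2.80% of the reads from that donor (exact 95% interval 2.02% to 3.78%).

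Other unannotated Zic4 junctions reached the finger exon: mm9 chr9:91276264-91278851 with 69 reads, chr9:91278484-91278851 with 24 reads and chr9:91267531-91278851 with 23 reads. A further one, chr9:91278965-91281372, left that exon early with 49 reads. Within Zic1, 2 junctions from the last acceptor had 25 and 22 reads, against 8483 for the annotated junction that ends there. On the strand of Zic5 but beyond Zic2, mm9 chr14:122880349-122881699 had 28 reads.

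Reads on the strand of Zic1 went on past its annotated start. A contig of 1754 bases between Zic1 and the main Zic4 starts, mm9 chr9:91261304-91263057, had a mean coverage of 0.722, which was 2.43% of the 29.7 over the Zic1 body.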

How the results depend on the processing

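Ratios are log2 here. Zic1 over Zic4 was 2.81 on TPM. It was 1.87 on CPM not divided by length, 1.85 on mm9 Ensembl RPKM, 3.11 on mm9 assembled gene models, and, in alternatives chosen after seeing the data, 1.78 with protein-coding transcripts only, 1.35 on counts per kilobase, 2.69 on last-junction and 3.12 on first-junction reads. Zic2 over Zic5 was 2.05, stayed at 2.09 on mm9 Ensembl RPKM, and became 1.79 on CPM, 1.71 on assembled models, 2.94 with coding transcripts, 2.76 on counts per kilobase, 2.78 on last-junction and 1.58 on first-junction reads. The locus ratio was 3.04, and became 2.47 on CPM, 2.55 on mm9 Ensembl RPKM, 0.99 on assembled models, 2.06 with coding transcripts and 1.56 on counts per kilobase. No ratio changed sign. FPKM and an added 1 TPM moved none of the 3 ratios beyond 1 SD. Leaving out a replicate gave 2.76 to 2.86, 1.92 to 2.18 and 2.99 to 3.10. The cause of the differences between tables was not tested.

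Of 14340 genes, 608 were at least 2-fold apart between libraries, 1302 genes with a minimum of 20 counts and 4418 with no filter, where more genes were counted. Genes that were higher in replicate 2 made up 6.74% of those 608 genes and 26.3% with no filter, and 18.2% under spike-in scaling. Of the alternatives for single genes, transcripts, pairs and lists, 72 values were labelled as the same, 33 as moved and none changed sign. With 2 libraries, a level or share from 1 of them lies within 1 SD of the mean by arithmetic. Replicate ratios and list counts have no SD over libraries. The tally is therefore not a measure of how robust the values are. No paired analysis was possible because there is 1 group. Zic1-203 and Zic5-202 are limited by 4 and 6 junction reads.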
